A study of Mus musculus with 4 samples.

Results

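The p53 pathway couples DNA damage and other stress to growth arrest, repair and cell death. The transcription factor p53, encoded by Trp53, is held at a low level by the ubiquitin ligase Mdm2, itself a p53 target, and when it accumulates it switches on genes such as Cdkn1a, whose product p21 blocks cyclin-dependent kinases (CDKs). CDK inhibitors of the Cip/Kip family (Cdkn1a, Cdkn1b, Cdkn1c) act on several cyclin-CDK complexes, and those of the Ink4 family (among them Cdkn2a, Cdkn2b, Cdkn2c and Cdkn2d) act on CDK4 and CDK6.

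A set of 36 genes was followed, made up of Trp53, its regulators and targets, and the CDK inhibitors. They were picked by symbol from the 26322 genes listed in the table. All 36 symbols were found and 32 had levels high enough to be tested. The samples were MC38 cells, a mouse line labelled as colorectal cancer, electroporated with Cas9 and a guide RNA as a ribonucleoprotein and collected at least 1 week later. The 2 sgNT libraries (labelled WT) received a non-targeting guide and the 2 sgCbfb libraries (labelled CbfbKO) received a guide against Cbfb, which encodes the partner subunit of the RUNX transcription factors. Cas9 was thus shared by both groups, and the labels name no cloning of the edited cells. Only the Cbfb guide has a genomic target, so a Cas9 cut and the loss of Cbfb come together in the sgCbfb group and cannot be told apart. The labels do not say whether same-group samples came from separate cultures, so the p-values measure the spread between these samples, which may be technical.

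The libraries were made from the 3′ ends of mRNA, so a long transcript yields no more reads than a short one and levels can be set side by side between genes. The authors deposited log2 CPM values (counts scaled to a common library size) with a small prior count added, and whole reads were recovered from these values. The libraries held between 3189035 and 3907936 reads, and 1 read was worth between 0.256 and 0.314 CPM. Differences are sgCbfb minus sgNT on the log2 CPM scale, tested with limma over 12207 genes and adjusted over all of them by the Benjamini-Hochberg method. Cbfb itself had 295 and 285 reads in sgNT and 125 and 125 in sgCbfb libraries, and fell by 1.27 (SE 0.12, limma adjusted p = 1.76e-07). The 10 colon epithelial markers examined, among them Epcam, Cdh1 and Krt20, were at or near 0 and summed to between 5 and 7 reads per library, which goes against an epithelial reading of the label. Markers of leukocytes summed to at most 1 read per library and those of endothelium to at most 2. Of the 4 fibroblast markers, Pdgfra had from 91 to 169 and Dcn from 95 to 116 reads per library, whereas Pdgfrb had from 4 to 16 and Lum had 0 in every library.

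In sgCbfb cells 1 of the 32 tested genes was higher, Cdkn1a, and 1 was lower, the anti-proliferative gene Btg1. Among all tested genes 1.57% were called higher and 1.25% lower, 192 and 153 genes, so these counts are close to the background and are no result about the 36 genes as a group. With voom on the recovered reads, scaled by trimmed means, the split over all genes was 182 higher and 243 lower. Of the 32 differences 15 were positive and 17 negative, with a median of -0.016 against a median of 0.039 over all tested genes. An unadjusted p under 0.05 was found for 4 genes (Cdkn1a, Btg1, Plk2 and Mdm2), and for 14.9% of all tested genes. The sgCbfb libraries lay above both sgNT libraries for 7 genes, where 27.4% of all tested genes did so, and below both for another 7, where 16.8% did so. For the 30 genes not called, the 95% confidence interval stayed within a 2-fold change either way for 27 and within a 1.5-fold change for 16. The exceptions to the first were Cdkn2a, Btg2 and Ddb2, which each had fewer than 10 reads in at least 1 library.

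**Figure D1:**
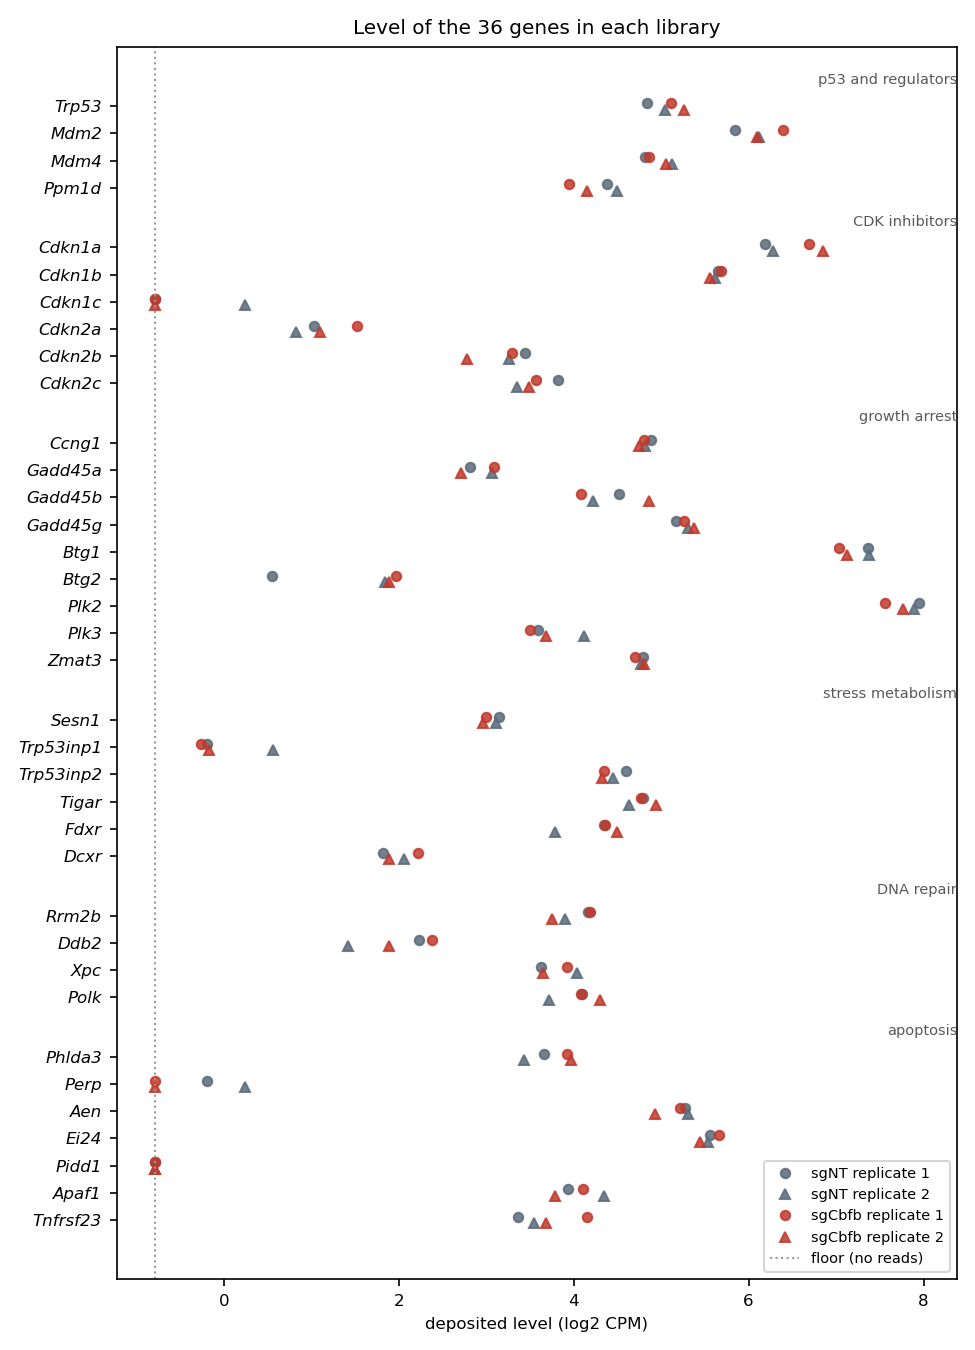
Deposited level (log2 CPM, horizontal axis) of each of the 36 genes in the 2 sgNT libraries (grey) and the 2 sgCbfb libraries (red), with circles for replicate 1, triangles for replicate 2 and a dotted line at the floor of genes without reads. The red symbols of Cdkn1a lie apart to the right of the grey ones and those of Btg1 to the left, whereas for most other genes the colours lie close together or mix.

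Levels among the 36 genes spanned a wide range. Plk2 was the highest, with a mean of 222.2 CPM over the 4 libraries, followed by Btg1 (149.7 CPM), Cdkn1a (91.6 CPM) and Mdm2 (69.2 CPM). Trp53 ranked 9 of the 36 with 33.0 CPM. At the low end were 4 genes that were not tested. Pidd1, which encodes a death-domain protein of the PIDDosome, had 0 reads in every library, and a count of 0 allows up to between 0.768 and 0.941 CPM (3 reads). The membrane protein gene Perp had 1 and 2 reads in sgNT and 0 and 0 in sgCbfb libraries. Cdkn1c had 2 reads in 1 sgNT library and 0 elsewhere, and Trp53inp1, an autophagy and cell death gene, had between 1 and 3 reads per library. No difference in these 4 genes was detectable at this depth. Such limits and the intervals on read shares cover counting error only.

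Cdkn1a is a textbook direct target of p53, and the reference sequence around its starts is shown because it was the only one of the 36 genes called higher. RefSeq (GRCm38.p6) gives Cdkn1a an upstream start at position 29090979 and a downstream start at 29093769 on the plus strand of chromosome 17, 2790 bases apart. The 250 bases before the upstream start (chr17:29090729-29090978) are printed 5′ to 3′, with half-sites of the p53 response element in capitals.

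Cdkn1a upstream window: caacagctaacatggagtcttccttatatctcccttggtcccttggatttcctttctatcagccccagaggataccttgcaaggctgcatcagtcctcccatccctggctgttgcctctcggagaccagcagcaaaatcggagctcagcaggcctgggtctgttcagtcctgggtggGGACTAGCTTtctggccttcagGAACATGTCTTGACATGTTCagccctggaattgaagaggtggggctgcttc

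The half-site GAACATGTCT (chr17:29090928-29090937) matches the p53 half-site consensus at every position and is followed without a gap by TGACATGTTC, which has 1 mismatch. A further exact half-site, GGACTAGCTT, lies 12 bases before the first. GAACATGTCT begins 51 bases before the upstream start and 2841 bases before the downstream one. Pairs of half-sites at most 13 bases apart, with exact central bases and at most 1 mismatch in 20 on either strand, were found in 0.356% of 32851 windows of 250 bases before the starts of all genes. Of the 36 genes 29 were matched by symbol to 36 windows, and the upstream window of Cdkn1a was the only 1 with such a pair. Only the 250 bases before each start were searched, so a site elsewhere, such as within a gene, would be missed. The genes not matched had no window to search. The RUNX motif, searched as TGTGGT or TGCGGT on both strands, was found in neither window of Cdkn1a nor in that of Btg1, and in the windows of 6 of the 29 genes, Mdm2 and Apaf1 among them. It is held by 16.7% of the 36 windows of these genes and by 18.6% of all windows. These matches describe the sequence and not binding, and reads from 3′ ends do not tell from which start a transcript came.

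Trp53 and its direct regulators did not pass the threshold. Reads of Trp53 numbered 95 and 108 in the sgNT libraries and 133 and 120 in the sgCbfb ones. On the log2 CPM scale sgNT cells stood at 4.94 ± 0.15 and sgCbfb cells at 5.18 ± 0.10 (SD, n = 2 each), without overlap of the groups. The difference was 0.25 (95% interval -0.065 to 0.56, adjusted p = 0.485 from limma), and it ran from 0.14 without sgNT replicate 1 to 0.35 without sgNT replicate 2. Trp53 lies on chromosome 11 of GRCm38 (69580359 to 69591873). The annotation also holds a copy, Trp53-ps. Whether reads were shared with it was not measured, which makes the value less certain.

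Mdm2, the ligase that marks p53 for degradation, had 193 and 229 reads in sgNT and 326 and 217 in sgCbfb libraries. Its groups overlapped, since only sgCbfb replicate 1 lay above the sgNT libraries. The difference was 0.27 (95% interval 0.020 to 0.52, adjusted p = 0.284 from limma), and it was 0.12 and 0.41 without sgCbfb replicates 1 and 2 and 0.13 and 0.40 without sgNT replicates 1 and 2. Mdm4, a relative of Mdm2 that binds and inhibits p53, had between 94 and 114 reads and a difference of -0.015. The annotation holds a copy of this gene too, Mdm4-ps, and sharing of reads was likewise not measured. Ppm1d, a p53-induced phosphatase that switches the pathway off again, had 69 and 73 reads in sgNT and 58 and 55 in sgCbfb libraries. Both sgCbfb libraries of Ppm1d lay below both sgNT libraries, but the difference of -0.39 had an interval reaching from -0.79 to 0.020 (adjusted p = 0.369 from limma).

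Among the CDK inhibitors Cdkn1a rose in sgCbfb cells. GENCODE places the gene on chromosome 17 (GRCm38, 29090976 to 29100727, plus strand) and overlaps AC167363.2 on the opposite strand. Whether reads were counted by strand is not given in the sources used here, so reads of such a pair cannot be told apart. Its read counts were 246 and 256 without the Cbfb guide and 401 and 366 with it. This is 72.4 and 76.8 CPM in sgNT against 102.6 and 114.8 CPM in sgCbfb, so that the groups did not overlap. On the log2 scale the sgNT mean was 6.23 ± 0.059 and the sgCbfb mean 6.77 ± 0.11 (SD, n = 2 each). The difference was 0.54 (standard error 0.098, 95% interval 0.34 to 0.74, adjusted p = 0.00146 from limma), which is 1.45-fold. Across 12 other settings of the analysis the difference lay between 0.46 and 0.62. The call was held in 7 of them and lost with quantile normalization (adjusted p = 0.0925), without the mean-variance trend (0.291), without the filter on low values (0.429) and when either sgCbfb library was left out (0.445 and 0.511). When either sgCbfb library was left out no gene in the table passed, although 1104 and 1169 genes had an unadjusted p under 0.05 in limma, where the lone library is assumed to vary like the sgNT pair.

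**Figure D2:**
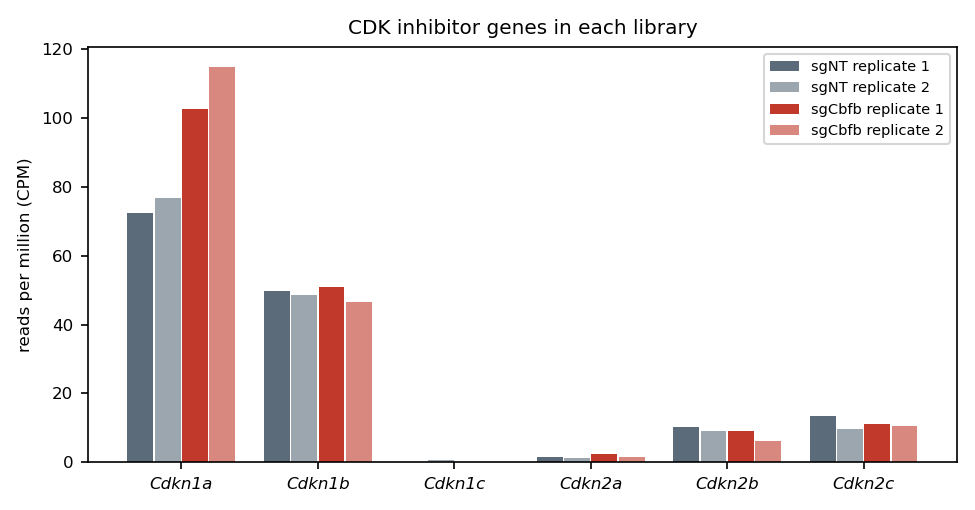
Level in CPM (vertical axis from 0) of the 6 CDK inhibitor genes, 1 bar for each library, grey for sgNT and red for sgCbfb. The bars of Cdkn1a reach 72.4 and 76.8 CPM in sgNT and 102.6 and 114.8 CPM in sgCbfb, whereas those of Cdkn1b lie between 46.4 and 50.9 CPM.

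Of the other Cip/Kip genes only Cdkn1b was tested, and it did not pass the threshold. Cdkn1b, which encodes the p27 inhibitor, had 169 and 162 reads in sgNT and 199 and 148 in sgCbfb libraries. Its difference was -0.016, with a 95% interval from -0.27 to 0.24. The ratio of Cdkn1a to Cdkn1b reads within a library, which no scaling of libraries can change, was 1.46 and 1.58 in sgNT and 2.02 and 2.47 in sgCbfb. Both sgCbfb ratios were thus the higher, but the smallest p that exact permutation of 4 libraries can give for a ratio is 0.333. The ratio of Cdkn1a to Mdm2 reads did not separate the groups, with 1.27 and 1.12 in sgNT and 1.23 and 1.69 in sgCbfb.

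Of the 3 Ink4 genes in the set none passed the threshold. Cdkn2a encodes p16 and, from another first exon, the Mdm2 inhibitor p19Arf, and its 3′ reads do not separate these products. It was close to the limit of detection, with 5 and 4 reads in sgNT and 9 and 5 in sgCbfb libraries. Cdkn2b (p15) had 35 and 30 reads in sgNT and 36 and 20 in sgCbfb, and Cdkn2c (p18) had between 32 and 46 reads. The differences were -0.32 for Cdkn2b and -0.055 for Cdkn2c, and that of Cdkn2b was -0.58 without sgCbfb replicate 1 and -0.060 without sgCbfb replicate 2. Of all reads on the 6 CDK inhibitor genes of the set, Cdkn1a took 49.1% and 52.7% in sgNT and 58.2% and 63.9% in sgCbfb libraries. The exact binomial 95% intervals were 44.6% to 53.6% and 48.1% to 57.2% in sgNT, and 54.4% to 61.9% and 59.8% to 67.8% in sgCbfb. The share was higher in both sgCbfb libraries, although the intervals of sgNT replicate 2 and sgCbfb replicate 1 overlapped. The Ink4 gene Cdkn2d (p19Ink4d), which was followed in the list of cell cycle genes and not in the set, had 117 and 114 reads in sgNT and 144 and 105 in sgCbfb libraries, with a difference of 0.021 (adjusted p = 0.970 from limma). With its reads counted in, the Cdkn1a share was 39.8% and 42.7% in sgNT and 48.1% and 54.0% in sgCbfb.

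Among the growth arrest genes was Btg1, the only one of the 36 genes called lower in the main test. Btg1, an anti-proliferative gene of the BTG/TOB family that recruits mRNA deadenylases, lies on chromosome 10 (96617006 to 96622809). Btg1 had 558 and 552 reads in sgNT and 510 and 442 in sgCbfb libraries, or 164.3 and 165.5 CPM against 130.5 and 138.6 CPM. The sgNT values were the higher in each pairing. The difference was -0.29 (standard error 0.081, 95% interval -0.46 to -0.13, adjusted p = 0.0485 from limma), which leaves 81.6% of the sgNT level. This adjusted p is close to the threshold, and the call was held in 4 of the 12 other settings, with adjusted p-values from 0.00942 to 0.551. It was lost without any 1 of the 4 libraries, with differences between -0.34 and -0.25. The copies Btg1-ps1 and Btg1-ps2 were both listed with 0 reads in every library.

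Plk2, a polo-like kinase induced by p53, was the most abundant of the 36 genes and missed the threshold. It had 835 and 790 reads in sgNT and 737 and 694 in sgCbfb libraries, or 245.9 and 236.9 CPM against 188.6 and 217.6 CPM. The groups did not overlap, and the difference was -0.25 (standard error 0.077, adjusted p = 0.0846 from limma). It passed with a minimum of 5 CPM (adjusted p = 0.0278 from limma), with the replicate block (0.0409) and in voom on the recovered reads (0.0135), but in none of the other settings. The difference was -0.15 without sgCbfb replicate 1 (adjusted p = 0.584 from limma) and -0.35 without sgCbfb replicate 2 (0.511). The related kinase gene Plk3 had between 39 and 56 reads and a difference of -0.27, which was -0.53 without sgNT replicate 1 and -0.0021 without sgNT replicate 2. It overlaps the gene Tctex1d4 on the opposite strand.

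**Figure D3:**
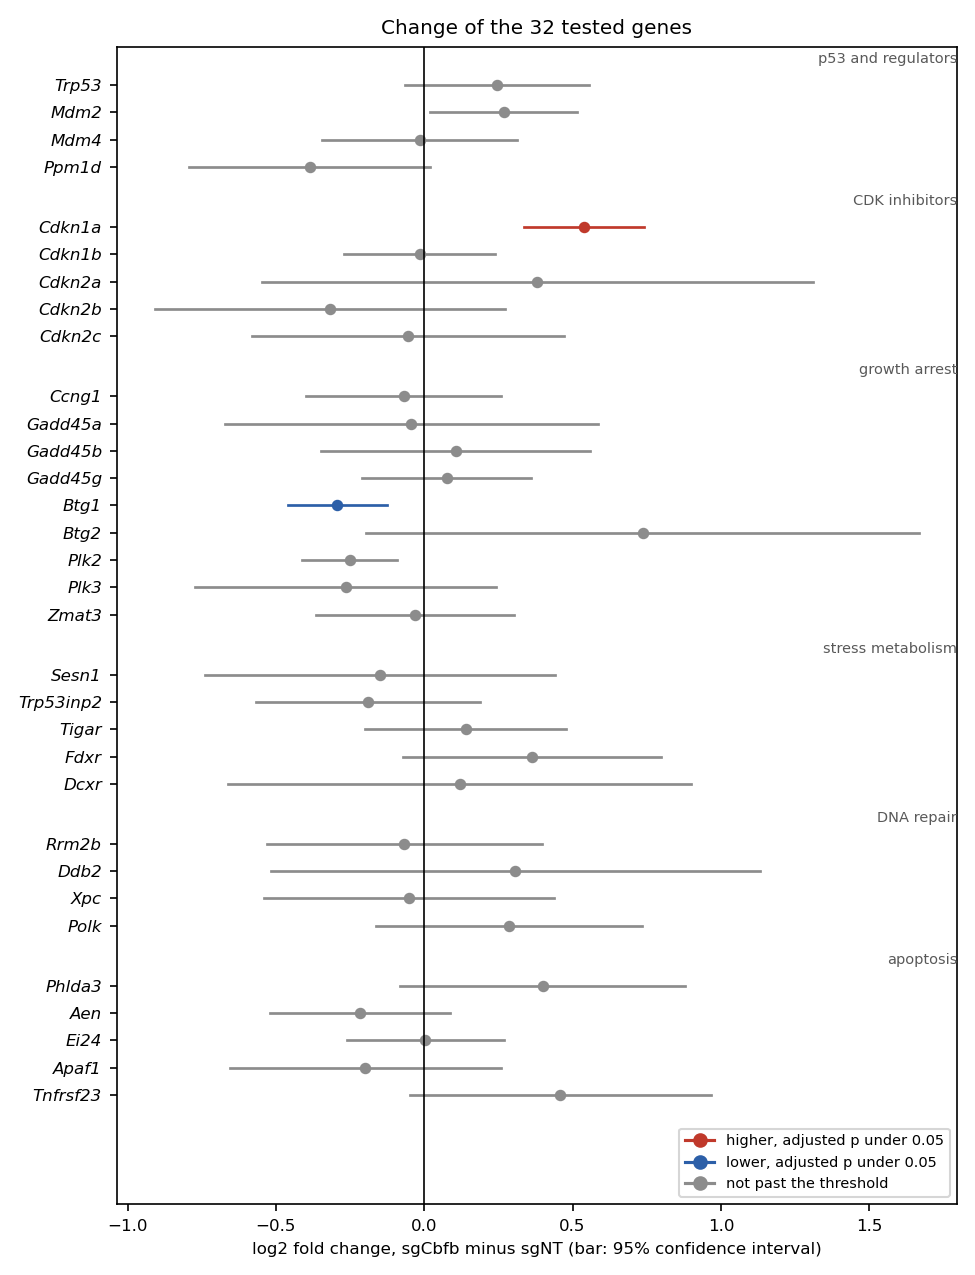
Log2 fold change (sgCbfb minus sgNT, horizontal axis) of the 32 tested genes by role, with bars for the 95% confidence interval. Cdkn1a (0.54) and Btg1 (-0.29) are past the adjusted threshold, and the interval of Plk2 and that of Mdm2 exclude 0 without passing it.

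Among the other arrest genes, Btg2, a p53 target related to Btg1, had 3 and 10 reads in sgNT and 13 and 10 in sgCbfb libraries. Its difference of 0.74 was the largest of the 32, but its interval ran from -0.20 to 1.67. The value rested on the sgNT libraries and was 0.090 without sgNT replicate 1 and 1.38 without sgNT replicate 2. Ccng1, a cyclin that takes part in p53 feedback, had 98 and 92 reads against 107 and 84 and a difference of -0.070, small although both sgCbfb libraries lay lower after scaling. Zmat3, an RNA-binding p53 target, had 92 and 89 reads against 99 and 87 and a difference of -0.032. The GADD45 genes encode small stress sensors. Gadd45a had a difference of -0.044, Gadd45b of 0.11 and Gadd45g of 0.076. Gadd45b was the most uneven of them in sgCbfb cells, with 64 and 91 reads.

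None of the genes of stress metabolism passed the threshold. The sestrin gene Sesn1, whose product restrains mTORC1, had 28 and 27 reads in sgNT and 29 and 23 in sgCbfb libraries, a difference of -0.15. The autophagy gene Trp53inp2 had 80 and 71 reads in sgNT and 77 and 62 in sgCbfb libraries, a difference of -0.19. Tigar, which lowers glycolytic flux, had a difference of 0.14. Fdxr, the mitochondrial ferredoxin reductase, had 67 and 44 reads in sgNT and 78 and 70 in sgCbfb libraries. Its groups did not overlap after scaling, with a difference of 0.36 (adjusted p = 0.450 from limma), but the value was 0.64 without sgNT replicate 1 and 0.083 without sgNT replicate 2. Dcxr, a carbonyl reductase, had between 10 and 16 reads.

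The DNA repair genes were likewise not called. Rrm2b, the p53-inducible subunit of ribonucleotide reductase, had a difference of -0.067. The damage recognition genes Xpc and Ddb2 had differences of -0.052 and 0.31, the latter on 14 and 7 reads in sgNT and 18 and 10 in sgCbfb libraries. Polk, a translesion polymerase, had 56 and 42 reads in sgNT and 64 and 61 in sgCbfb libraries, a difference of 0.29 (adjusted p = 0.595 from limma). All 4 genes had overlapping groups.

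Of the 7 apoptosis genes 5 were tested and none passed. Phlda3, a repressor of AKT signalling, had 41 and 34 reads in sgNT and 57 and 48 in sgCbfb libraries, and Tnfrsf23, a mouse decoy receptor for TRAIL, had 33 and 37 against 67 and 39. Both had sgCbfb libraries above the sgNT libraries, with differences of 0.40 and 0.46 (adjusted p = 0.452 and 0.402 from limma). That of Tnfrsf23 was 0.22 without sgCbfb replicate 1 and 0.69 without sgCbfb replicate 2. Aen, an exonuclease, had 129 and 130 reads in sgNT and 143 and 95 in sgCbfb libraries, which after scaling is lower in both, with a difference of -0.22. Ei24, an endoplasmic reticulum protein gene, differed by 0.0032. Apaf1, the scaffold of the apoptosome, differed by -0.20 with overlapping groups.

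Further genes of the pathway were followed in lists, with no test of a list as a set. Of 35 further p53 targets 32 were tested, 1 was called higher and 0 lower, near the background of 1.57% and 1.25%, and their median difference was -0.011. The gene that rose was Tap1, a peptide transporter of antigen presentation that is also induced by interferon. Tap1 went from 21 and 23 reads in sgNT to 52 and 62 in sgCbfb libraries, up by 1.23 (SE 0.27, limma adjusted p = 0.00764), and overlaps Psmb9 on the opposite strand. Its call was lost without either sgCbfb library (limma adjusted p = 0.525 and 0.511) and without sgNT replicate 1 (0.0687). It was also lost with quantile normalization (0.153), without the filter on low values (0.575) and without the mean-variance trend (0.203), while the difference stayed between 0.97 and 1.49 in the 12 settings. The pro-apoptotic targets Bax, Bbc3 and Pmaip1 had differences of -0.16, -0.094 and 0.20, and the stress cytokine gene Gdf15 of 0.025, none of them past the threshold. These 4 were named after their values were seen. By limma 3 of the 32 had an unadjusted p under 0.05, against 14.9% of all tested genes. Besides Tap1 these were the thiamine transporter gene Slc19a2 (-0.82, adjusted p = 0.114) and Rps27l (-0.16, adjusted p = 0.261), both with negative differences.

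**Figure D4:**
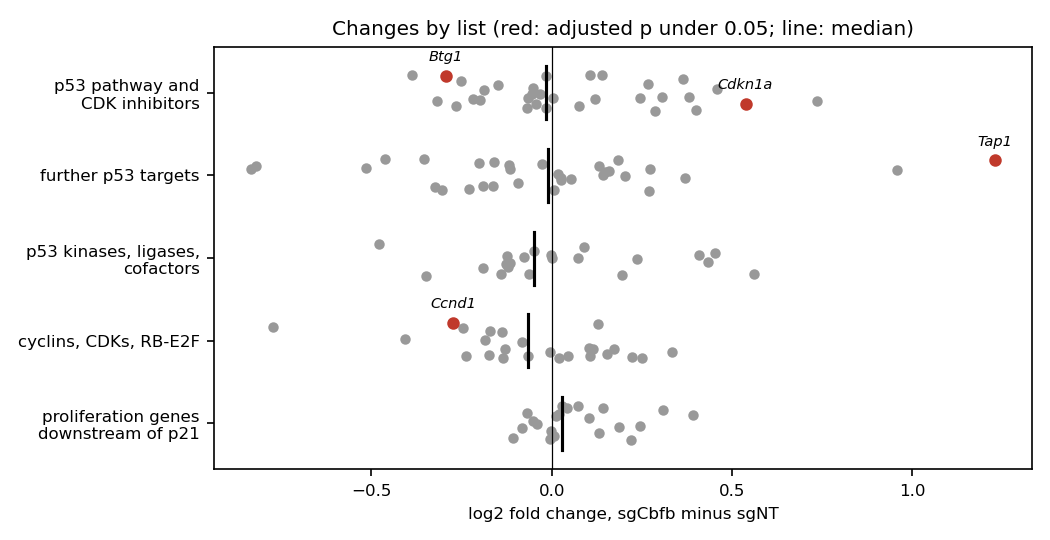
Log2 fold change (sgCbfb minus sgNT, horizontal axis) of each tested gene in the 36-gene set and in 4 further lists, red where called, with the list's median as a black line. The medians lie between -0.067 and 0.028, and the called genes are Cdkn1a, Btg1, Tap1 and Ccnd1.

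Of 23 upstream kinases, ligases and cofactors of p53, 21 were tested and 0 were called by limma, while 1 had an unadjusted p under 0.05, Trp53bp1 (difference 0.41, adjusted p = 0.155). The p53 relatives Trp63 and Trp73 had 0 reads in every library. Of 25 genes of the cell cycle machinery, mostly cyclins, CDKs and RB-E2F genes but also Cdkn2d and the phosphatase gene Cdkn3, all were tested, 0 were higher and 1 was lower. This was Ccnd1, the cyclin D1 gene, with 3068 and 3072 reads in sgNT and 3013 and 2353 in sgCbfb libraries where it fell by 0.27 (SE 0.055, limma adjusted p = 0.00353), and it overlaps LTO1 on the opposite strand. The call was lost without any 1 of the 4 libraries, with adjusted p-values from 0.0501 to 0.511 and differences from -0.31 to -0.24, and also without the filter on low values (0.486) and without the trend (0.450). The background shares called were 1.57% higher and 1.25% lower. By limma 8 of the 25 genes had an unadjusted p under 0.05, a larger share than the 14.9% over all tested genes. The list was not tested as a set. Its median SE was 0.114, against 0.214 for the tested genes of the 36-gene set, so smaller differences can reach such a p here. Positive differences among the 8 genes were those of E2f1 (0.33), Ccnd3 (0.25), Cdk1 (0.17), Ccnd2 (0.15) and Cks1b (0.13). Negative ones besides Ccnd1 were those of Cdk6 (-0.77) and Ccne2 (-0.25). Apart from Ccnd1 their adjusted p-values were 0.107 or more. Reads of Cdkn1a per read of Ccnd1 were 0.0802 and 0.0833 in sgNT and 0.133 and 0.156 in sgCbfb libraries. These genes had been called in opposite directions in the same libraries, so the ratio had to separate the groups and adds no evidence.

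Proliferation genes known to be repressed downstream of p21 were not called in either direction. Of 21 such genes 0 passed by limma, and 4 had an unadjusted p under 0.05, against 14.9% of all tested genes, so that the count is near the background. These were Plk1, Aurka, Aurkb and Tyms, each with a positive difference. The median over the list was 0.028, against 0.039 over all tested genes. The proliferation marker Mki67 differed by -0.083 (95% interval -0.21 to 0.040), and the interval stayed within a 1.5-fold change for 20 of the 21 genes.

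**Figure D5:**
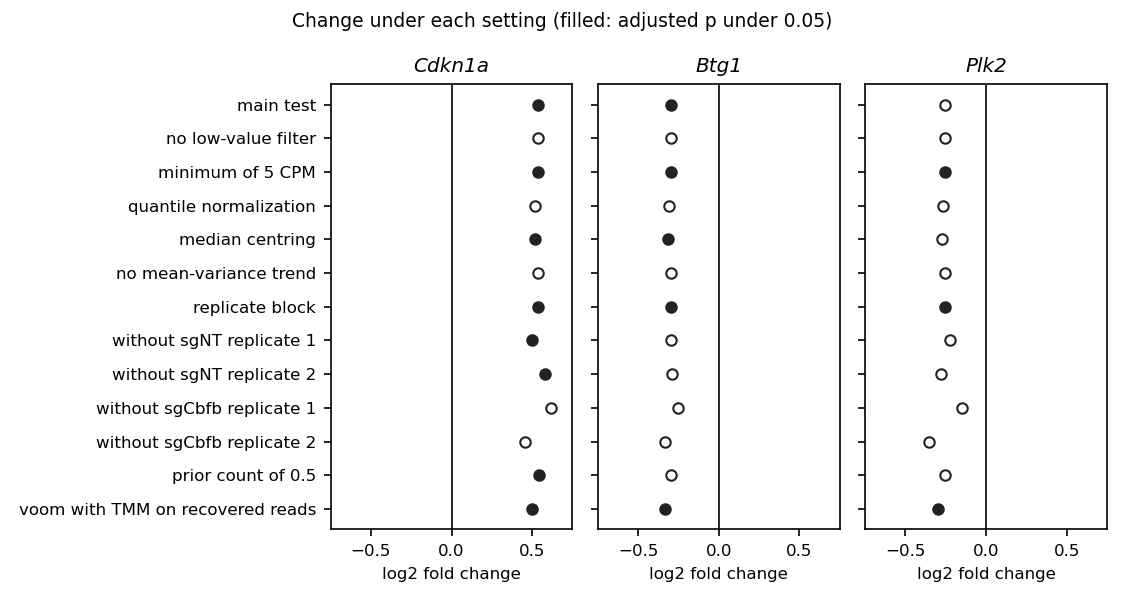
Log2 fold change (horizontal axis) of Cdkn1a, Btg1 and Plk2 in the main test and under 12 other settings (rows), with filled symbols where the adjusted p is under 0.05. Every point of Cdkn1a lies right of 0 and every point of Btg1 and Plk2 left of it, while the filling changes from row to row, with Cdkn1a filled in 7 of the 12, Btg1 in 4 and Plk2 in 3.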

How the data were processed

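RNA was measured by 3′ mRNA sequencing (QuantSeq, Lexogen) in 2 sgNT and 2 sgCbfb samples of MC38 cells. The authors deposited 1 table of log2 CPM per gene, made from reads trimmed with cutadapt 1.9, aligned to GRCm38 with HISAT2 2.1.0 and counted with featureCounts 2.0.1, as named in the submitters' processing notes. The gene annotation, the use of strand and the handling of reads with several matches are not given in the sources used here. The table carried a prior of about 2 reads, so fold changes of low genes are understated. Whole reads were recovered from the steps between low values, and at least 99.99% of values came out whole within 0.1 read. The ribosomal RNA gene Rn45s took from 11.3% to 13.9% of reads per library.

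Columns were matched to samples by name. Genes that reached a log2 CPM of 0 in 2 or more libraries were tested with limma 3.58.1 in R 4.3.3 (two-sided, with a mean-variance trend) and adjusted by the Benjamini-Hochberg method, with 0.05 as the threshold. Same-group libraries differed by more than counting noise (chi-square per degree of freedom 1.58 in sgNT and 2.15 in sgCbfb). All 36 genes were accounted for by role, with full statistics for called genes and for Trp53, Mdm2 and Cdkn1a, reads in every library where groups did not overlap, and ranges or counts for the rest. In the further lists called genes were named by rule, and uncalled ones after their values were seen. A gene of the list of further p53 targets is not reported here and was left out of its counts. The genes and the lists were chosen with earlier results of these data known. Alternatives covered filters, scaling, the variance trend, the prior, the replicate block, voom and leaving out each library. Positions come from the GENCODE annotation of GRCm38 and promoter sequences from RefSeq (GRCm38.p6). Further genes of the set overlap other annotated genes, among them Mdm4 (Gm29257), Ddb2 (Acp2), Polk (Gm17622), Rrm2b (Gm3362) and Tnfrsf23 (E230032D23Rik). Figures were drawn with matplotlib 3.10.9 in Python 3.11.15.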

Additional observations from a re-analysis of the deposited data

How the results depend on the processing

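Across the 12 other settings Cdkn1a, Btg1 and Plk2 each kept their direction. Over all genes, the count called higher (192) was 2 without the filter on low values, 300 with a minimum of 5 CPM, 39 with quantile normalization, 0 without the mean-variance trend (where 1461 genes had an unadjusted p under 0.05 in limma and voom called 182), 320 with the replicate block and 0 to 115 without 1 library. The count called lower (153) was 53 without the filter, 44 with quantile normalization, 0 without the trend, 243 with voom and 0 to 86 without 1 library. Of the 36 genes, 0 were called higher (1 in the main test) without the filter, with quantile normalization or without the trend, and 0 to 1 without 1 library. Called lower were 0 (1 in the main test) without the filter, with quantile normalization, without the trend or with a prior of 0.5 reads, and 0 without any 1 library, but 2 (Btg1 and Plk2) with a minimum of 5 CPM, the replicate block or voom. Cbfb differed by -1.27 without the filter and without the trend, but with adjusted p-values from limma of 0.290 and 0.115, and by -1.41 to -1.12 without 1 library, where the call was lost without either sgCbfb library (0.267 and 0.193). The cause of these losses was not tested. The replicate numbers pair no samples in the labels, and same-numbered samples did not deviate together (correlation -0.0042). The replicate block changed no other call among the 36 genes.

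The sign turned in 12 genes, none of them called. Ei24 (0.0032) was at -0.023 with quantile normalization, -0.020 with median centring and -0.024 with voom. Without 1 library, the differences ran from -0.10 to 0.11 for Ei24, -0.16 to 0.13 for Mdm4, -0.082 to 0.050 for Cdkn1b, -0.29 to 0.18 for Cdkn2c, -0.23 to 0.15 for Gadd45a, -0.28 to 0.50 for Gadd45b, -0.084 to 0.021 for Zmat3, -0.046 to 0.28 for Dcxr, -0.29 to 0.15 for Rrm2b, -0.099 to 0.71 for Ddb2, -0.26 to 0.16 for Xpc and -0.40 to 0.0077 for Apaf1. With the sign kept, they ran from 0.17 to 0.59 for Cdkn2a, -0.10 to -0.038 for Ccng1, 0.0065 to 0.15 for Gadd45g, -0.26 to -0.12 for Trp53inp2, 0.052 to 0.23 for Tigar, 0.099 to 0.47 for Polk and -0.36 to -0.071 for Aen. The planned edgeR and DESeq2 alternatives were not run, and voom was the only count-based alternative on the recovered reads. With 2 libraries a group, differences well under 2-fold in genes with few reads are beyond the precision of these data.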
